A study of Mus musculus with 54 samples.

Results

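The trophectoderm genes were 10 genes of the outer, placenta-forming layer of the mouse blastocyst or of the trophoblast that derives from it: Cdx2, Eomes, Gata3, Tfap2c, Elf5, Hand1, Dlx3, Tead4, Krt8 and Krt18. Their accessible regions were taken from 1 merged list of 113737 ATAC-seq peaks on the mouse genome build GRCm38. A peak was assigned to a gene when its centre lay within 50 kb of a transcription start site (TSS) of that gene in GENCODE M21, which gave 143 peaks. A TSS peak of a gene had its centre within 1 kb of one of its TSSs, and a distal peak had its centre more than 1 kb from every annotated TSS of any gene. The 143 peaks were 20 TSS peaks of the 10 genes, 107 distal peaks and 16 peaks at the TSS of other genes. The values were set against 15535 protein-coding genes with a TSS peak.

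The list was made from ATAC-seq, in which the Tn5 transposase cuts and tags open DNA, in ZHBTc4 mouse embryonic stem (ES) cells. All 54 samples, in 24 groups, carried the fusion mCherry-OCT4-AID, the ubiquitin ligase Tir1 and the cell cycle reporter YPet-MD. Through Tir1 the fusion is degraded after addition of indole-3-acetic acid (IAA). All samples received 1 ug/ml doxycycline (dox), which shuts off the untagged OCT4 of this line. The study cultured its ES cells with serum, leukemia inhibitory factor and the inhibitor mix 2i. The groups differed in IAA (none or 500 nM) and in sorting: 22 samples with 26 hr of dox were sorted by cell cycle phase (early G1, late G1, S, and late S with G2) with 2 hr of IAA or none, 16 samples with 31 hr of dox were sorted into the same phases 4.5 hr after washout of 2.5 hr of IAA or none, and 16 unsorted samples with 34 hr of dox received IAA for 0 to 10 hr. The deposited list merges the peaks over these experiments and carries no score and no value for a sample or group, so it has no replicates, the depth behind a peak is unknown, and no difference between samples was tested. Whether accessibility at these genes changed on loss of OCT4 was not examined. The list holds no expression values, so the labelled cell type was not checked against its markers.

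The trophectoderm separates from the inner cell mass, the source of ES cells, when outer cells of the embryo polarise and Hippo signalling falls there. The coactivator YAP1 then enters the nucleus and acts with the DNA-binding factor TEAD4, and CDX2 and GATA3 are expressed. OCT4 and CDX2 oppose each other in this choice, and ES cells of the line used here turn towards trophectoderm when OCT4 is removed for long enough.

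Promoters differ widely in CpG content, and the trophectoderm genes spanned much of that range. To show this, the 200 bases before a protein-coding TSS are given for Eomes, whose widest TSS peak had the second highest CpG observed/expected ratio of the 10 genes, and for Krt8, with the second lowest. The TSS used was the one nearest to the centre of a TSS peak. Sequences are from GRCm38.p6, 5′ to 3′ on the strand of the gene, with each CpG in capitals. Neither stretch overlapped an annotated exon.
Eomes, chr9:118478012-118478211, plus strand: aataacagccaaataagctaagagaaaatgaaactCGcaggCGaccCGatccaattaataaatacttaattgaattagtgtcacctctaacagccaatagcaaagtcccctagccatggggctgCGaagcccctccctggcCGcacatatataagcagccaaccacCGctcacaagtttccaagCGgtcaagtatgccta
Krt8, chr15:102004483-102004682, minus strand: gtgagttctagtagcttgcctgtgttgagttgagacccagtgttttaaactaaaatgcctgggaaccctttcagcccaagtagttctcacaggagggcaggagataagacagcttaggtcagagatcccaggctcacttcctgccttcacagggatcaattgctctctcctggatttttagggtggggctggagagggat
The Eomes stretch held 7 CpGs at 46.5% GC, and the Krt8 stretch held none at 50.0% GC. The Krt8 stretch lay wholly within the widest TSS peak of the gene. Of the Eomes stretch, 43 of the 200 bases lay in a peak, a separate one of 220 bp, and none in the widest TSS peak.

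Binding letters of OCT4 were looked for in the distal peaks because OCT4 was the factor removed in these cells. The composite OCT4::SOX2 motif, allowing 2 mismatches, occurred in 0 of 107 distal peaks, beside 0.263% of all distal peaks. This search by consensus is strict and does not count sites that differ at more than 2 bases, so neither value describes the motif as a position weight matrix, the kind of model used in the study, would find it. A count of 0 allows a share of up to 2.80% when taken as 3 counts of the 107, and the 95% Wilson interval ends at 3.47%, both for counting error only. The OCT motif alone, ATGCAAAT on either strand, occurred in 3 of them (2.80%, beside 3.05% of all distal peaks), in the windows of Tead4, Cdx2 and Gata3. These 3 peaks lay 17.8, 31.8 and 33.4 kb from the nearest TSS of the member, respectively, and each was nearer to another protein-coding gene, namely Tulp3, Urad and Taf3. Each is given as 120 bases of the plus strand of GRCm38.p6 with the motif in capitals.
Tead4, chr6:128318467-128318586: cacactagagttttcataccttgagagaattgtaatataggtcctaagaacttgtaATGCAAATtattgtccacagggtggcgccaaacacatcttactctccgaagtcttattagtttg
Cdx2, chr5:147339074-147339193: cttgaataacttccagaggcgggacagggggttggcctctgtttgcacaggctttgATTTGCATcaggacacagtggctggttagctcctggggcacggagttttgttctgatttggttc
Gata3, chr2:9923154-9923273: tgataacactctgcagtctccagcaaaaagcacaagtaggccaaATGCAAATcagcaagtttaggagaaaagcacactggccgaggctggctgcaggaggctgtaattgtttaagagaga
In the Cdx2 peak the match lies on the minus strand, so its letters appear reversed and complemented. Matches of the TEAD motif, ACATTCC on either strand, are shown for the keratin pair and for Cdx2 because TEAD4 is itself a member. The 2 keratin stretches come from peaks that lie between the starts of Krt8 and Krt18.
Krt18, chr15:102025382-102025501: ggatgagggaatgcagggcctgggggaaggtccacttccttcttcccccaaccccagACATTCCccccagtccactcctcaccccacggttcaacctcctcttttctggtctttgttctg
Krt8, chr15:102013627-102013746: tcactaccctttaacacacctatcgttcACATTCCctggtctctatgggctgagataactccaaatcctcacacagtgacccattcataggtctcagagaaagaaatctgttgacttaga
Cdx2, chr5:147294206-147294325: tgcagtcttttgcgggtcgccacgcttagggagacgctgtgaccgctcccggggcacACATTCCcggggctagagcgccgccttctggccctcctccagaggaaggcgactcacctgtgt
Motif matches are letters in a window and not evidence of binding.

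Of the 10 trophectoderm genes, 10 had a TSS peak, beside 70.8% of all 21938 protein-coding genes (15535). All 10 also had at least 1 TSS base inside a peak, beside 67.1% of all protein-coding genes. The 10 genes together had 32 different TSSs, of which 19 lay inside a peak and 13 did not. The matching share of TSSs over all genes was not computed. The width of the widest TSS peak had a median of 1115 bp over the trophectoderm genes and 1219 bp over all protein-coding genes with a TSS peak, and 4 of the 10 lay above the latter. A percentile below is the share of those 15535 genes with a lower value, with each tied gene counted at a weight of 0.5. The median of the trophectoderm genes lay at percentile 38.2 for width. The CpG observed/expected ratio of these peaks had a median of 0.653, against 0.695 over all these genes (percentile 40.6). The side of this difference rested on single genes: without any 1 of Gata3, Elf5, Hand1, Krt8 or Krt18 the median was 0.720, above that of all these genes, and without any 1 of the 5 others it was 0.586. TSS peaks were called CpG-rich at a ratio of at least 0.6 with a GC content of at least 50%, which held for 5 of 10 trophectoderm genes beside 68.4% of all genes with a TSS peak. The trophectoderm genes were thus spread over the range in both measures, as the plot of width against CpG ratio shows.

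**Figure D1:**
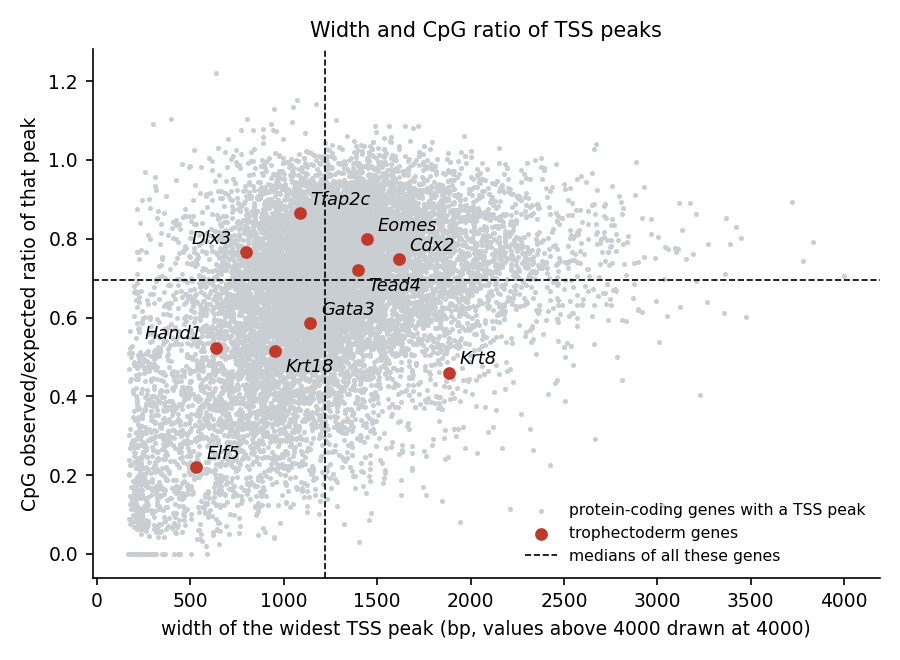
Width in bp (x axis) and CpG observed/expected ratio (y axis) of the widest TSS peak of each protein-coding gene with a TSS peak (grey, 15535 genes) and of the 10 trophectoderm genes (red), with dashed lines at the medians of all these genes, 1219 bp and 0.695. Krt8 combines a wide peak with a low ratio, and Elf5 lies at the low end of both axes.

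Tead4 encodes the TEA-domain factor through which YAP1 acts, upstream of Cdx2. Its widest TSS peak, chr6:128299725-128301120, was 1396 bp wide with a CpG ratio of 0.720, and contained 3 of its 4 TSSs. The remaining TSS, 25246 bp from the first and inside the gene, lay in a separate peak of 218 bp with a CpG ratio of 0.206. Tead4 had 18 distal peaks, the highest number among the 10 genes (percentile 97.7), and 12 of these lay inside the gene, mainly in introns. The Tead4 window spanned 125 kb because its TSSs lie apart, and per 100 kb of window it held 14.4 distal peaks, fewer than the 16.6 of Tfap2c.

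Cdx2 encodes the caudal-type homeodomain factor needed to maintain the trophectoderm. Its single TSS lay in a peak of 1616 bp, chr5:147305874-147307489 (percentile 82.7 for width), with a CpG ratio of 0.748. This whole peak also held the OCT motif, as did the widest TSS peaks of 3.32% of all protein-coding genes with one, but the 300 bp around its centre did not. Cdx2 had 10 distal peaks with a median width of 753 bp, the largest median among the 10 genes. The nearest, of 1118 bp, lay in an intron of Cdx2 2.19 kb from its TSS. The widest, of 1378 bp, lay 29.6 kb downstream, and its nearest protein-coding TSS was that of Pdx1. In all, 6 of the 10 distal peaks were nearer to Pdx1 or Urad than to Cdx2, so the window assigns to Cdx2 peaks that are closer to other genes.

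Gata3 encodes a GATA zinc finger factor of the trophectoderm. It had 6 TSS peaks, the highest number among the 10 genes, and 6 TSSs that lie up to 16362 bp apart. The widest, chr2:9888963-9890104, was 1142 bp wide with a CpG ratio of 0.586, just under the limit for CpG-rich, and its centre lay 6 bp from the TSS of another protein-coding gene, 9230102O04Rik. The other TSS peaks were 194 to 678 bp wide. Gata3 had 13 distal peaks (percentile 92.9), with 7 upstream, 6 downstream and none inside the gene. None lay within 5 kb of a Gata3 TSS, and 4 of the 7 upstream peaks were nearer to Taf3.

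Tfap2c encodes AP-2 gamma, which acts with GATA3 and CDX2 in trophoblast. Its widest TSS peak, chr2:172550322-172551409, was 1088 bp wide, had the highest CpG ratio of the 10 genes, 0.865 (percentile 88.0), and contained 4 internal TSSs. The first TSS lay in a second peak of 730 bp with a ratio of 0.748. Tfap2c had 17 distal peaks (percentile 97.2), all of them intergenic, with 9 upstream and 8 downstream. Of these, 16 were nearer to Tfap2c than to any other protein-coding gene.

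Eomes encodes a T-box factor needed for the expansion of trophoblast. Its widest TSS peak, chr9:118478435-118479878, was 1444 bp wide with a CpG ratio of 0.798 and a GC content of 67.7%, the highest of the 10 genes. The peak began past the first 2 TSSs of the gene, which lay in no peak, and contained the third. A peak of 220 bp lay just upstream of the first TSS. Eomes had 9 distal peaks (percentile 79.5), of which 3 lay within 5 kb of a TSS. The nearest, of 283 bp, was 1.16 kb upstream and had a CpG ratio of 1.07.

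Elf5 encodes an ETS-family factor of trophoblast stem cells whose promoter is known to be DNA-methylated in ES cells. Its first TSS, like those of Eomes and Hand1, lay in no peak, and the nearest peak centre was 13.2 kb away. A peak of 492 bp, chr2:103424607-103425098, contained the start of a shorter protein-coding transcript and had a CpG ratio of 0.328. A peak of 529 bp, which counted as the widest TSS peak, lay 973 bp from the TSS of a non-coding transcript inside the gene and contained no TSS. Its CpG ratio of 0.221 lay at percentile 3.87 and its width at percentile 6.22. Elf5 had 5 distal peaks, the lowest number among the 10 genes and equal to the median of all genes, although its window spanned 137 kb. Per 100 kb this was 3.65 distal peaks, the only value of the 10 below the median of 4.42.

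Hand1 and Dlx3 encode factors of later trophoblast, a basic helix-loop-helix factor of giant cells and a homeodomain factor needed for the placental labyrinth. The widest TSS peak of Hand1, chr11:57831593-57832228, was 636 bp wide (percentile 8.51) with a CpG ratio of 0.523, and it contained the second of its 2 TSSs but not the first. Hand1 had 11 distal peaks (percentile 87.8), and 3 of them were CpG-rich. The single TSS of Dlx3 lay in a peak of 795 bp, chr11:95120036-95120830 (percentile 13.8), with a CpG ratio of 0.765. Dlx3 had 13 distal peaks, of which 9 lay upstream, and 6 of the 13 were nearer to its neighbours Dlx4 or Itga3.

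Krt8 and Krt18 encode the keratins that pair into the intermediate filaments of the trophectoderm epithelium. Their starts lie 23.7 kb apart on chromosome 15 and point away from each other, so they share a neighbourhood and are not independent members. The TSS peak of Krt8, chr15:102002855-102004739, was the widest of the 10 genes at 1885 bp (percentile 92.0) but had a CpG ratio of 0.460 (percentile 14.9). The TSS peak of Krt18, chr15:102027893-102028846, was 954 bp wide with a ratio of 0.515. Krt8 had 10 distal peaks and Krt18 had 8, and 7 of these were the same peaks. Between the 2 starts lay 3 distal peaks, which were 489, 693 and 732 bp wide. Every distal peak of both genes was intergenic.

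Read by rank, the widths of the TSS peaks went from Krt8 (1885 bp), Cdx2, Eomes, Tead4, Gata3, Tfap2c, Krt18, Dlx3 and Hand1 down to Elf5 (529 bp), with no error to say which neighbours differ. The CpG ratios ran in another order, and the 5 CpG-rich genes, Tfap2c, Eomes, Dlx3, Cdx2 and Tead4, lay between 0.720 and 0.865. The 5 others lay between 0.221 and 0.586. Distal peaks numbered 9 to 18 around the CpG-rich genes and 5 to 13 around the others.

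The trophectoderm genes had many distal peaks around them relative to other genes. The count within 50 kb had a median of 10.5, against 5 over all protein-coding genes with a TSS peak (percentile 86.1), and 9 of the 10 genes lay above that median, with Elf5 at it. Per 100 kb of window the medians were 10.5 and 4.42 (percentile 93.7). The total width of distal peaks in the window had a median of 6634 bp against 2615 bp, and 10 of 10 genes lay above the latter. The surrounding sequence, from 50 to 500 kb away, also had more distal peaks than for other genes, with medians of 5.72 and 4.22 per 100 kb (percentile 75.8), and the part of this regional density in the counts was not tested. As a description without replicates, none of these differences carries a p-value, and a merged list of ES cell peaks does not say which gene a peak acts on.

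**Figure D2:**
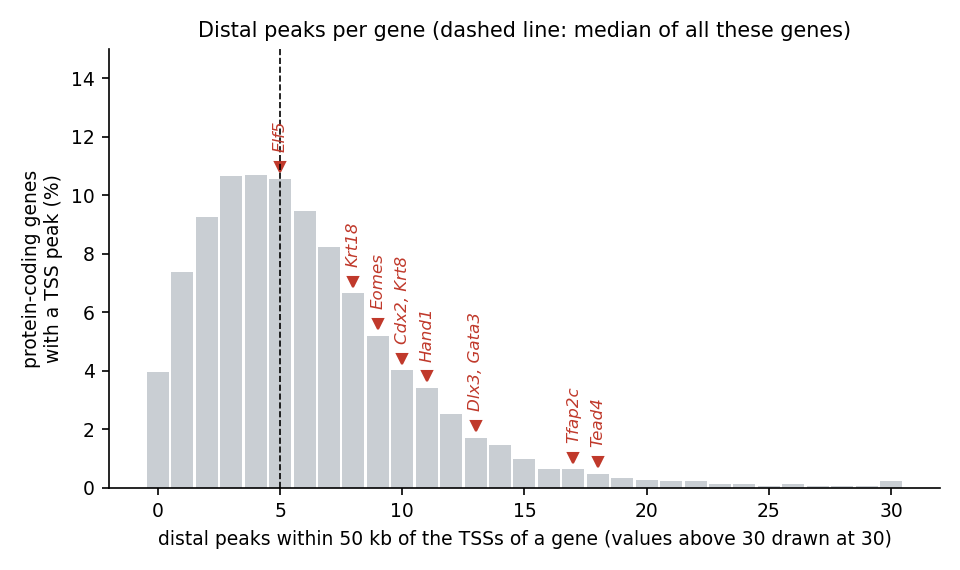
Share of the 15535 protein-coding genes with a TSS peak (y axis, %) by their number of distal peaks within 50 kb (x axis), with the trophectoderm genes marked in red. Elf5 stands at the median of 5 and the other 9 genes lie to its right, up to Tead4 with 18.

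The 107 distal peaks made 114 pairs with genes, because the 7 peaks near both keratin genes count for each. Relative to the nearest member, 47 lay upstream, 18 inside the gene and 42 downstream. By distance to the nearest TSS of a member, 14 lay within 5 kb, 45 between 5 and 20 kb and 48 between 20 and 50 kb. For 73 the nearest protein-coding TSS was that of a member, and for 34 it was that of another gene. The farthest distal peak inside the window lay 49.97 kb from a Tead4 TSS and the nearest one outside lay 50.56 kb from that of Cdx2. The inner 20 kb thus held 59 of the 107, more than the wider zone from 20 to 50 kb, as the map of the regions shows. The splits by position, distance and nearest gene were not computed for other protein-coding genes, so they are descriptions only.

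**Figure D3:**
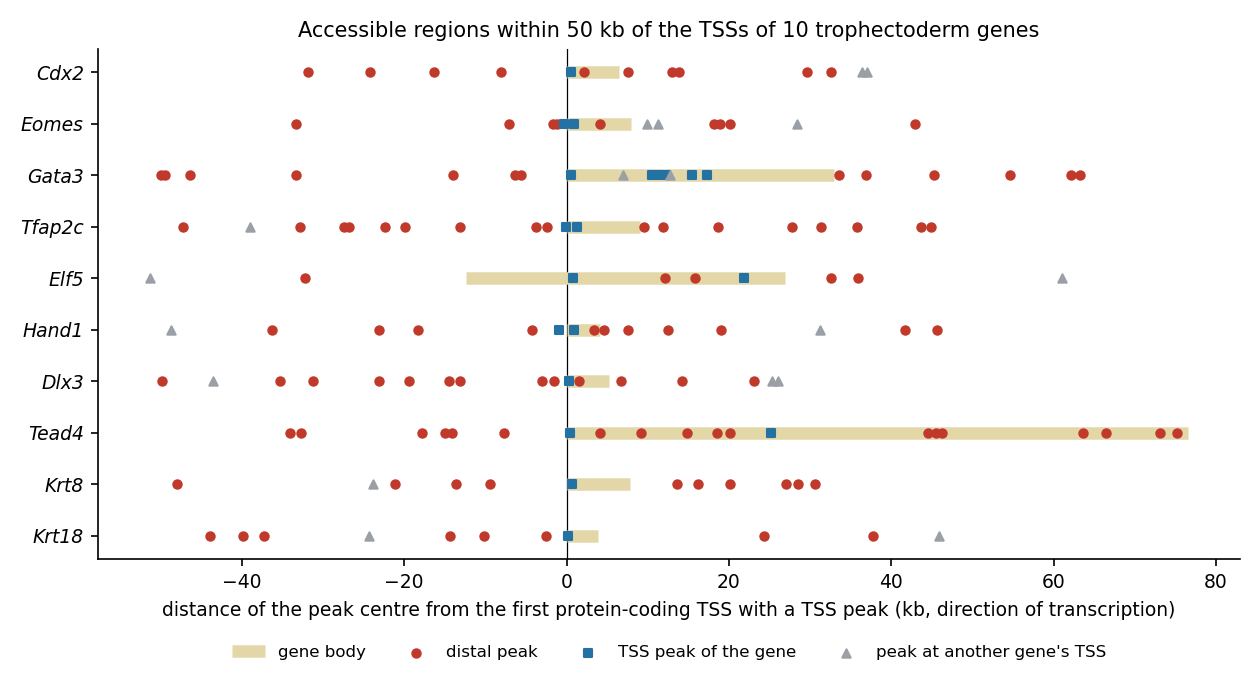
Positions of the peak centres of each trophectoderm gene (rows) in kb from its first protein-coding TSS that has a TSS peak (x axis, in the direction of transcription), with distal peaks as red circles, TSS peaks of the gene as blue squares, peaks at the TSS of other genes as grey triangles and the annotated gene as a band. Distal peaks fill the body of Tead4 (12 of 18), flank Tfap2c on both sides and are fewest around Elf5 (5).

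The distal peaks near trophectoderm genes were wider than distal peaks in general, with medians of 511 bp and 380 bp, and richer in GC, with medians of 52.1% and 47.7%. The set of all distal peaks had no limit on distance to a gene, unlike the 107 peaks. The part of this limit in these differences, and in the motif shares, was not tested. They were intergenic in 68.2% of cases (95% Wilson interval 58.9 to 76.3%) and intronic in 25.2% (18.0 to 34.2%), whereas the shares over all 89794 distal peaks were 49.6% and 44.3%. Peaks made mostly of repeats were 4 of 107, a share of 3.74% (1.46 to 9.22%), beside 15.5% of all distal peaks. CpG-rich peaks were 13 of 107, a share of 12.1% (7.24 to 19.7%), beside 2.54% of all distal peaks. These 13 lay near Cdx2 (4), Hand1 (3), Eomes, Tfap2c and Dlx3 (2 each), and 8 of them lay within 5 kb of a TSS of their gene. Peaks close to a TSS of any gene were CpG-rich more often in the whole list too: within 5 kb of any TSS the share was 5.25% over all distal peaks and 34.5% (10 of 29) near trophectoderm genes, and beyond 5 kb it was 1.78% and 3.85% (3 of 78). The intervals cover counting error only, and peaks around 1 gene share their surroundings and are not independent.

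Letters of 11 motifs were searched on both strands of the 107 distal peaks, in the whole peak and in 300 bp around its centre, the second because wider peaks hold more matches. The TEAD motif (ACATTCC) was present in 17 whole peaks, a share of 15.9% (Wilson 10.2 to 24.0%), beside 9.65% of all distal peaks. In windows of 300 bp the shares were 8.41% (4.49 to 15.2%) and 6.51%, and the interval then included the share over all distal peaks. The AP-2 motif (GCCNNNGGC, where N is any base) was present in 29 whole peaks, 27.1% (19.6 to 36.2%) beside 16.2%, and in windows of 300 bp in 18.7% (12.4 to 27.1%) beside 11.1%. The KLF motif (GGGNGNGGC) was present in 37 peaks, 34.6% (26.2 to 44.0%) beside 17.1%, and in windows of 300 bp in 27.1% (19.6 to 36.2%) beside 12.1%. The AP-2 and KLF letters are rich in G and C, as the members' distal peaks were relative to the list, and the part of base composition in these shares was not tested. Both motifs occurred in 10 of the 107 peaks, and in none of these 10 did their matches share bases. The share of peaks with both was not computed over all distal peaks.

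For the other motifs the interval included the share over all distal peaks in both windows. The GATA motif (AGATAAG) was present in 7.48% of the 107 whole peaks, beside 6.14% of all distal peaks. The CDX motif (CCATAAA), which CDX2 itself can read, was present in 2.80% of them, beside 5.56%. The T-box motif (AGGTGTGA), read by factors such as EOMES, was present in 1.87%, beside 2.49%. The ETS motif (AGGAAGT), read by the family of ELF5, was present in 13.1%, beside 14.3%. The SOX motif (CATTGTT) was present in 6.54%, beside 9.04%, and CTCF, allowing 1 mismatch, in 19.6%, beside 16.1%. The same motifs in 300 bp around the centre were present in 3.74% beside 3.93% for GATA, 1.87% beside 3.47% for CDX, 0.935% beside 1.57% for T-box, 5.61% beside 9.69% for ETS, 3.74% beside 6.21% for SOX and 12.1% beside 12.9% for CTCF. The OCT share was 2.80% (0.958 to 7.92%) beside 3.05%, and the SOX and OCT letters are the 2 parts of the composite motif. At the rate of the whole list fewer than 1 composite match would fall among 107 peaks, so a share below that of the list could not be seen. The letters of a factor's own family occurred in 7 of 17 distal peaks around Tfap2c (AP-2), 3 of 18 around Tead4 (TEAD), 1 of 5 around Elf5 (ETS), 0 of 13 around Gata3 (GATA), 0 of 10 around Cdx2 (CDX) and 0 of 9 around Eomes (T-box), beside 16.2%, 9.65%, 14.3%, 6.14%, 5.56% and 2.49% of all distal peaks, respectively. With 5 to 18 peaks a gene, these shares are too coarse for a comparison. No match was found for any of the 11 motifs in 26 of the 107 peaks (24.3%), a share that was not computed over all distal peaks.

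**Figure D4:**
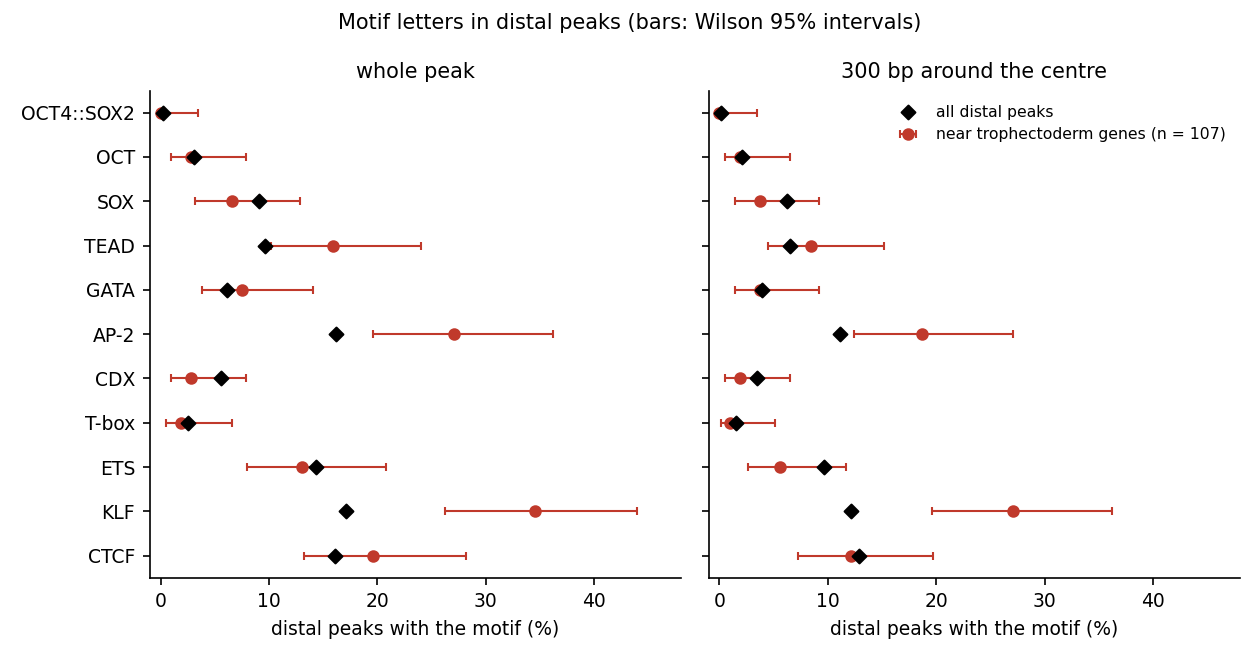
Share of distal peaks with each motif (x axis, %) near trophectoderm genes (red circles with Wilson 95% intervals, n = 107) and over all distal peaks of the list (black diamonds), in whole peaks on the left and in 300 bp around the centre on the right. The intervals of AP-2 and KLF lie above the diamonds in both panels, and that of TEAD only in whole peaks.

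At the TSS peaks the counts depended on how much of the peak was searched. In the whole widest peak, KLF letters were found in 7 of 10 genes beside 67.0% of all genes with a TSS peak, and AP-2 letters in 5 of 10 beside 62.9%. CTCF letters were found in 6 of 10 beside 19.5%, and ETS letters in 5 of 10 beside 22.6%. In 300 bp around the centre, KLF letters were found in 2 of 10, Eomes and Tead4, beside 36.1%, and AP-2 letters in 1 of 10, Cdx2, beside 32.2%. CTCF letters were found there in 3 of 10, Eomes, Gata3 and Elf5, beside 4.99%, and ETS letters in 1 of 10, Tfap2c, beside 6.03%. With 10 genes, shares at TSS peaks are too coarse for a comparison.

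Other genes of the trophoblast, in 4 lists of 33 genes in all, had a TSS peak in 27 cases. The 9 genes of the Hippo pathway and TEAD family, which include regulators and coactivators of TEAD factors and the paralogues Tead1, Tead2 and Tead3, all had one. Their median was 7 distal peaks, from 2 around Amot, which holds YAP1 outside the nucleus, to 21 around Tead1, whose window spanned 260 kb. Per 100 kb of window the median of this list was 4.30, below the 4.42 of all genes, whereas its count of 7 lay above their 5. The 10 epithelial genes, which include junction and keratin genes and Fgfr2, also all had one. Their median was 10 distal peaks, from 6 around Krt19 and Krt7 to 19 around Fgfr2, the receptor through which FGF4 sustains trophoblast stem cells. The window of Fgfr2 spanned 298 kb, and per 100 kb it held 6.37 distal peaks, below the median of 7.55 for this list. Of 8 further transcription factors of trophoblast, 7 had a TSS peak. Esx1 was the exception, with a peak of 2564 bp whose centre lay 1003 bp from its TSS and which contained that TSS. Their median was 5.5 distal peaks, close to the 5 of all genes, from 3 around Ets2 to 8 around Msx2, or 5.19 per 100 kb.

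Of 6 genes of differentiated trophoblast, 1 had a TSS peak, the syncytin gene Syna, with 965 bp and a CpG ratio of 0.355. The 5 without one were Gcm1, which drives the formation of syncytiotrophoblast, Plac1, the spongiotrophoblast gene Tpbpa and the placental lactogen genes Prl3b1 and Prl3d1. The peak centre nearest to a TSS lay 1.20 kb away for Gcm1, 3.51 kb for Plac1, 22.1 kb for Tpbpa, 42.2 kb for Prl3d1 and 176 kb for Prl3b1. The median was 1.5 distal peaks, from 0 around Prl3b1 to 9 around Gcm1, or 0.995 per 100 kb. The 5 of all genes was taken over genes with a TSS peak, and Syna, the gene here that meets this condition, had 8 distal peaks. The prolactin genes belong to a large family of similar copies, and how well reads can be placed there was not tested. For comparison, 10 primitive endoderm genes had a median of 5.5 distal peaks (0 to 17) and 9 of them a TSS peak, and 10 pluripotency genes had a median of 10 (2 to 26) and all of them a TSS peak. The counts of the trophectoderm genes (5 to 18) lay within the range of the pluripotency genes. Per 100 kb of window the medians were 10.5 for the trophectoderm genes, 8.91 for the pluripotency genes and 4.30 for the primitive endoderm genes, the last again below that of all genes.

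**Figure D5:**
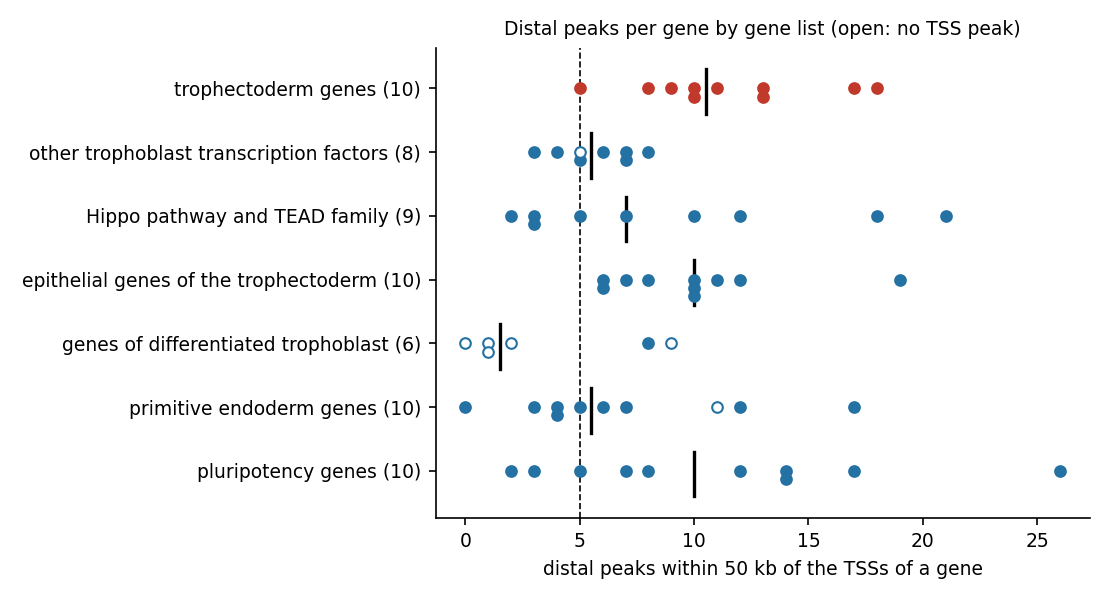
Distal peaks within 50 kb of the TSSs of each gene (x axis) in the trophectoderm genes (red), 4 other lists of trophoblast genes and 2 lists of other lineages (blue), with the number of genes in brackets, open circles for genes without a TSS peak, short lines at the list medians and a dashed line at the median of all protein-coding genes with a TSS peak (5). The differentiated trophoblast genes have the lowest median, 1.5, although 2 of these 6 genes, Gcm1 and Syna, lie above 5, and the list medians of the trophectoderm and pluripotency genes are 10.5 and 10, while per 100 kb of window the Hippo and primitive endoderm medians (4.30 each) fall below that of all genes (4.42).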

How the data were processed

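The authors aligned ATAC-seq reads to GRCm38 with STAR 2.6.1c, removed duplicates with Picard, called peaks with MACS2 2.1.1.20160309 and joined overlapping peaks from all OCT4-AID samples given dox with BEDTools (versions from the submitters' processing notes). The values deposited by the authors are other than counts or signal: the start and end of each merged region, in bp. The study describes removing blacklisted regions, regions called in input samples and regions above 5 kb, but 11 of the last remained. Whether peaks were called per library is not given in the sources used here. Such a list gains regions and width as more or deeper libraries enter it.

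Positions, given 1-based, were joined to GENCODE M21 and GRCm38.p6, whose lengths held every peak, with Python 3.11.15, numpy 2.4.6, pandas 2.3.3 and matplotlib 3.10.9. Where a gene had several TSS peaks, the widest was used. Percentiles count a tied gene with a weight of 0.5. Counting and motif search were tested on simulated data, in which 100% of planted motifs were found. The members and lists were chosen with earlier results of these data known. All 10 members are named. Of the other trophoblast lists, genes without a TSS peak and with most or fewest distal peaks are named. Members were ranked by CpG ratio, promoter stretches from both ends of this ranking were chosen, and those of the highest and lowest ratio are not reported here. No test was made, as there is 1 list and no replicate.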

Additional observations from a re-analysis of the deposited data

How the results depend on the processing

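For 16 results, 177 alternatives were computed, of which 2 were chosen after seeing the data, and 168 stayed within 1.5 times the reported value or, for motif shares, within its interval. The 9 exceptions came from the size of the window and from the part of a peak searched for motifs. Within 20 kb the median number of distal peaks of the trophectoderm genes was 6.5 and the number of different distal peaks was 59, and within 100 kb these were 17.5 and 166. The medians of all protein-coding genes with a TSS peak were then 2 and 10. In 300 bp around the peak centre, in place of the whole peak, the shares with a motif fell outside their interval for TEAD (8.41%), GATA (3.74%), AP-2 (18.7%), ETS (5.61%) and CTCF (12.1%), in part because fewer bases were searched. With the TSS peak centre within 500 bp, 8 of the 10 genes had a TSS peak, beside 67.2% of all protein-coding genes. When 1 gene at a time was omitted, the results were a median distal count of 10 to 11, a median width of 1088 to 1142 bp and a median CpG ratio of 0.586 to 0.720, on either side of the 0.695 of all genes. With CpGs counted in 1 kb around the TSS in place of the peak, the median ratio was 0.593, against 0.717 over all genes. When the peak nearest to the first TSS was used in place of the widest, the median width was 874.5 bp (1193 bp over all genes). No paired analysis was possible because the merged list holds no value per sample and no result comes from a test. The depth per library is unknown, so a region missing from the list may be closed, too thinly covered or removed by the filters of the study.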
